A study of Mus musculus with 18 samples.

Results

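The livers of mice lacking Atf4 and of mice lacking Gcn2 were compared after both had received asparaginase, to find which functions set the deletions apart under the drug. The comparison took genes of the deposited table that had a valid estimate and a value above 0 in both groups and an FPKM (sequenced fragments scaled to gene length and library size) over 3 in at least 1 of them, and 9355 of 37303 genes met this rule. Each group had 3 mice, so the comparison rested on 6 of the 18 mice of the series. The series measured poly-A RNA of whole liver in wild-type (WT), Gcn2-/- and Atf4-/- mice, each strain given either asparaginase (ASNase, the bacterial enzyme used against leukaemia) or phosphate-buffered saline (PBS).

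The ASNase groups received 8 daily intraperitoneal doses of 3 IU per g of body weight and the PBS groups the saline alone, and livers were taken 7.5 h after the last injection, at an age that the labels put between 8 and 16 weeks. All strains were on the C57BL/6J background. Both deletions were homozygous and present in the whole body, so a liver value may also carry effects of other organs. The Gcn2-/- ASNase group held 1 male and 2 females and the Atf4-/- ASNase group 2 males and 1 female. Strain and sex thus cannot be told apart in any difference between these groups. The PBS groups of both strains had the same make-up, 1 male and 2 females in Gcn2-/- and 2 males and 1 female in Atf4-/-. WT held 1 male and 2 females with PBS and 2 males and 1 female with ASNase. The table gives 1 FPKM per group with a lower and an upper bound, not a value per mouse.

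Gcn2 (gene Eif2ak4) is a protein kinase that senses uncharged tRNA when an amino acid runs short and phosphorylates the initiation factor eIF2, which slows general translation. Atf4 is the transcription factor whose mRNA is then translated preferentially, and it activates genes for amino acid synthesis, uptake and tRNA charging. This route is the integrated stress response (ISR). Other eIF2 kinases, such as Perk (Eif2ak3) in the endoplasmic reticulum (ER), feed into the same pathway, so deleting Gcn2 removes 1 sensor and deleting Atf4 removes a common effector. The liver makes cholesterol, bile acids, urea and most plasma proteins, and is exposed to asparaginase during leukaemia therapy.

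The deleted genes were examined first. Atf4 (chr15:80255184-80257540, build mm10) had an FPKM of 50.4 with PBS and 63.1 with ASNase in WT, of 60.04 and 68.1 in Gcn2-/- and of 32.3 and 29.3 in Atf4-/- livers. Both Atf4-/- groups were thus the lowest, at a log2 difference of -1.22 ± 0.71 under ASNase. This difference was under the limit used below and the intervals overlapped, so Atf4 was not called, and its gene-level value does not by itself check the deletion. Eif2ak4 was at 2.96 in Gcn2-/- ASNase and 3.14 in Atf4-/- ASNase livers, against 2.39 in WT ASNase. The gene-level value of Eif2ak4 did not separate the strains. The Gcn2-/- allele removes a single exon, so this value does not check its label. The error after ± is the combined interval error, the root of the summed squares of the log2 distances from each value to its upper bound, which covers the bounds of the authors' estimate and not a spread between mice computed here.

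A gene was called when its log2 difference, on log2(FPKM + 0.1), was over 1.5 in size and the deposited intervals of the groups did not overlap. With 1 value per group no p-value could be computed, and no difference below has a replicate check. Of the 9355 genes, 298 were called (3.19%). Among them, 84 were higher (0.898%) and 214 were lower (2.29%) in Atf4-/- than in Gcn2-/- livers, so 71.8% of the calls were lower in Atf4-/-. The median log2 difference over all 9355 genes was 0.00499, so the genes as a whole were not shifted. Fold values below are on the scale of FPKM + 0.1. Without the interval condition 581 genes (6.21%) passed the fold limit, 214 of them higher and 367 lower (3.92%). The calls nearest to the limit were Gda at -1.51, Acy3 at -1.51 and Cbr1 at -1.51, and just outside it stood Ifi35 at -1.495, Emr1 at -1.48 and Ebpl at -1.48.

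**Figure D1:**
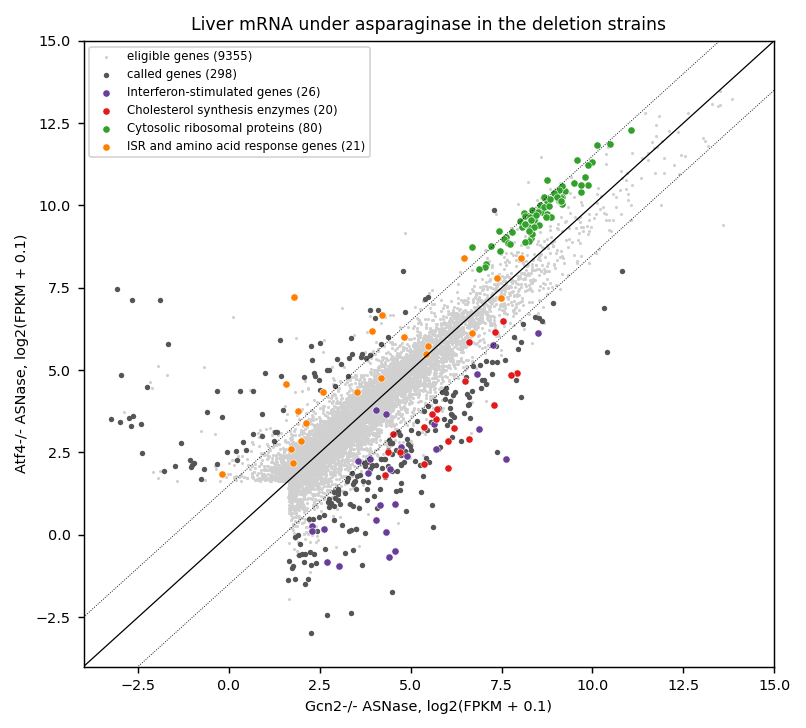
Each point is 1 of the 9355 genes, with log2(FPKM + 0.1) in Gcn2-/- ASNase liver on the x axis and in Atf4-/- ASNase liver on the y axis; dotted lines mark a log2 difference of 1.5 and dark points are the 298 called genes. Ribosomal protein genes (green) lie together above the diagonal, while cholesterol enzymes (red) and interferon-stimulated genes (purple) lie below it.

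Functions were described with 48 gene lists, which together hold 1308 genes. Of these lists 15 had 3 or more members called in 1 direction and 14 had no member called. The lists with the most calls were the interferon-stimulated genes, the cholesterol synthesis enzymes, the fatty acid oxidation genes, the cytochromes P450 and the carboxylesterases, in which most calls were lower in Atf4-/-. The ISR genes and the cytosolic ribosomal proteins had calls in the other direction alone. Of the 298 calls, 118 were in a list. Every count of called list members below stands beside 2.29% called lower and 0.898% called higher over all 9355 genes. A list median below is taken over all members with a valid estimate and a value above 0 in either ASNase group, whether or not they met the FPKM limit, and the same median over all 21179 such genes was 0.05.

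**Figure D2:**
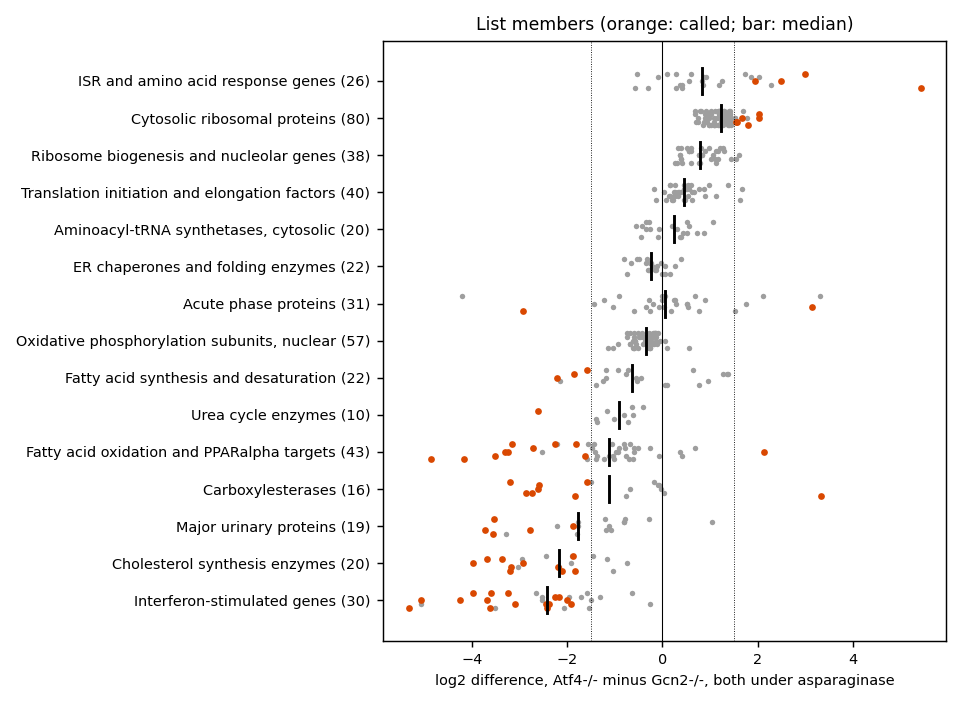
Each point is 1 list member, placed by its log2 difference of Atf4-/- minus Gcn2-/- under asparaginase; orange points are called, bars are list medians, dotted lines mark 1.5 in either direction and brackets give the number of members with a value. All 80 ribosomal protein genes lie to the right of 0, and all 30 interferon-stimulated genes and all 20 cholesterol synthesis enzymes lie to its left.

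The ISR genes that were called were all higher in the liver that lacked Atf4 than in the liver that lacked Gcn2. Of 26 genes in the list, 21 met the FPKM limit, 4 were called higher in Atf4-/- (0.898% of all genes were) and 0 lower, and the median log2 difference was 0.84 over 26 members. Trib3 (chr2:152337422-152344032), a pseudokinase that restrains Atf4 activity, was at 5.46 FPKM with PBS and 19.5 with ASNase in WT livers. In Gcn2-/- livers Trib3 was at 7.52 with PBS and 3.39 with ASNase, and in Atf4-/- livers at 3.63 with PBS and 150 with ASNase. The Atf4-/- ASNase value stood 43.0-fold above the Gcn2-/- one, a log2 difference of 5.42 ± 0.92, and also above WT ASNase.

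Chac1, which degrades glutathione, was at 2.89 FPKM in Gcn2-/- ASNase and 23.7 in Atf4-/- ASNase livers, 7.95-fold higher. Atf5, a transcription factor related to Atf4, was at 88.4 and 339 FPKM, 3.83-fold higher, and Soat2, which esterifies cholesterol, was at 18.3 and 103 FPKM, 5.59-fold higher. In the PBS groups none of these 3 genes was called, with log2 differences of 0.61 for Chac1, -0.84 for Atf5 and -0.60 for Soat2. Chac1 met the FPKM limit of 3 only through the Atf4-/- ASNase group, where it was high. With that limit placed on the mean of the 4 other groups, a choice made after seeing the data, 3 of the 4 ISR calls were left. Over the list 8 members passed the fold limit, all upward, while 22 differences were positive and 4 negative, the lowest Cebpb at -0.58. Asns, Atf3, Ddit3 and Fgf21 passed the fold limit but had intervals that overlapped. Asns, the enzyme that makes asparagine, was at 5.94 FPKM in Gcn2-/- ASNase and 20.1 in Atf4-/- ASNase livers, with 8.13 in WT ASNase and 0.591 in Atf4-/- PBS livers. Ddit3 (Chop), a stress-induced transcription factor, was at 15.1 and 73.1 FPKM, and Atf3, another of the same family, at 3.60 and 13.3. Fgf21, a hormone released by the stressed liver, was highest in WT ASNase liver at 29.3 FPKM, against 0.782 in Gcn2-/- ASNase and 3.50 in Atf4-/- ASNase livers, so both deletion strains stood below treated WT livers. With PBS Fgf21 was called in the other direction, lower in Atf4-/- than in Gcn2-/- livers at a log2 difference of -2.73. It was the 1 ISR gene called with PBS.

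The upstream sequence of ISR genes is shown because Atf4 binds a composite element, the CARE, spelled here TGATGNAA and searched on both strands of the RefSeq promoters (build GRCm38.p6, 250 bases before to 50 after the start). It was found in 11 of the 22 ISR genes with a promoter entry (50%) and in 4.51% of all 27025 genes with one. The match of Trib3 lay after its start site and is not shown. The capitals in the stretches below mark the match, each stretch is given 5′ to 3′ on the strand of its gene, and they come from chr2:119351014-119351091 (plus strand) for Chac1, chr1:191183401-191183478 (minus strand) for Atf3 and chr6:7693210-7693267 (minus strand) for Asns. A match is a description of the letters and no evidence of binding.
Chac1: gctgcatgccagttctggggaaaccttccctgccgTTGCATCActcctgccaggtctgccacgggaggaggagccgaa
Atf3: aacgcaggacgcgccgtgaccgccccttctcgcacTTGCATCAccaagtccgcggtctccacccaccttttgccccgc
Asns: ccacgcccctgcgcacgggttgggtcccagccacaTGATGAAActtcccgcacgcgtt

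Amino acid genes outside this list separated less. The 20 cytosolic aminoacyl-tRNA synthetases, which charge tRNA, had 0 calls and a median of 0.25, and 5 of their 12 promoter entries held a CARE. Among 12 genes of serine synthesis and mitochondrial one-carbon metabolism 5 met the FPKM limit, 0 were called and the median was -0.43. Of 21 amino acid transporters 1 was called, Slc1a4, a carrier of neutral amino acids. It was at 3.72 FPKM in Gcn2-/- ASNase and 0.557 in Atf4-/- ASNase livers. With the FPKM limit placed on the mean of the 4 other groups, a choice made after seeing the data, Slc1a4 was not called.

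Of the cytosolic ribosomal proteins few were called, all of them higher in Atf4-/- livers. All 80 cytosolic ribosomal protein genes had a positive log2 difference, between 0.67 and 2.03 with a median of 1.24, although only 6 were called higher (0.898% of all genes were) and 0 lower. The called genes included Rpl22l1, Rpl12, Rps12 and Rps26. Rps12, a protein of the small subunit, was at 543 FPKM with PBS and 611 with ASNase in WT, at 681 and 766 in Gcn2-/- and at 546 and 2672 in Atf4-/- livers. The first 5 values lay close together and the last stood apart, 3.49-fold above Gcn2-/- ASNase. Rpl12, of the large subunit, was at 434 and 1760 FPKM in the same ASNase groups, and Rps26 at 280 and 821. Without the drug the list median was -0.28.

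Genes that build ribosomes or drive translation gave no calls. All 38 ribosome biogenesis and nucleolar genes had a positive difference with a median of 0.78 and 0 calls; Npm1, a nucleolar chaperone, was at 132 FPKM in Gcn2-/- ASNase and 400 in Atf4-/- ASNase livers. Of 40 initiation and elongation factors 38 were positive, with a median of 0.44 and 0 calls, and Eef2, which moves the ribosome along the mRNA, was at 382 and 1188. The 53 mitochondrial ribosomal proteins had a median of -0.11 and 0 calls; the difference between these lists was not tested. Myc, a transcription factor that drives ribosome production, was called at 2.71 FPKM in Gcn2-/- ASNase and 13.8 in Atf4-/- ASNase livers, 4.95-fold higher. Ribosomal protein genes have many processed pseudogenes, and reads shared with them make single values uncertain.

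Growth arrest genes differed gene by gene. Gadd45a, which slows the cell cycle after stress, was at 7.33 FPKM with PBS and 2.57 with ASNase in Gcn2-/- and at 3.58 and 60.04 in Atf4-/- livers, a 22.5-fold difference between the ASNase groups. Trp53inp1, a p53 target, was at 28.6 and 110 FPKM in Gcn2-/- ASNase and Atf4-/- ASNase livers, 3.83-fold higher in the latter. Cdkn1a (p21), the cell cycle inhibitor most tied to p53, was near equal at 42.6 and 45.2 FPKM, from 1.08 and 0.928 in the PBS groups. The list of 20 p53 and growth arrest genes had 2 calls, both higher, and a median of 0.17. Ccnd1, the cyclin that opens the cell cycle, was the only call among 30 proliferation genes, at 8.47 FPKM in Gcn2-/- ASNase and 1.13 in Atf4-/- ASNase livers, 6.97-fold lower.

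**Figure D3:**
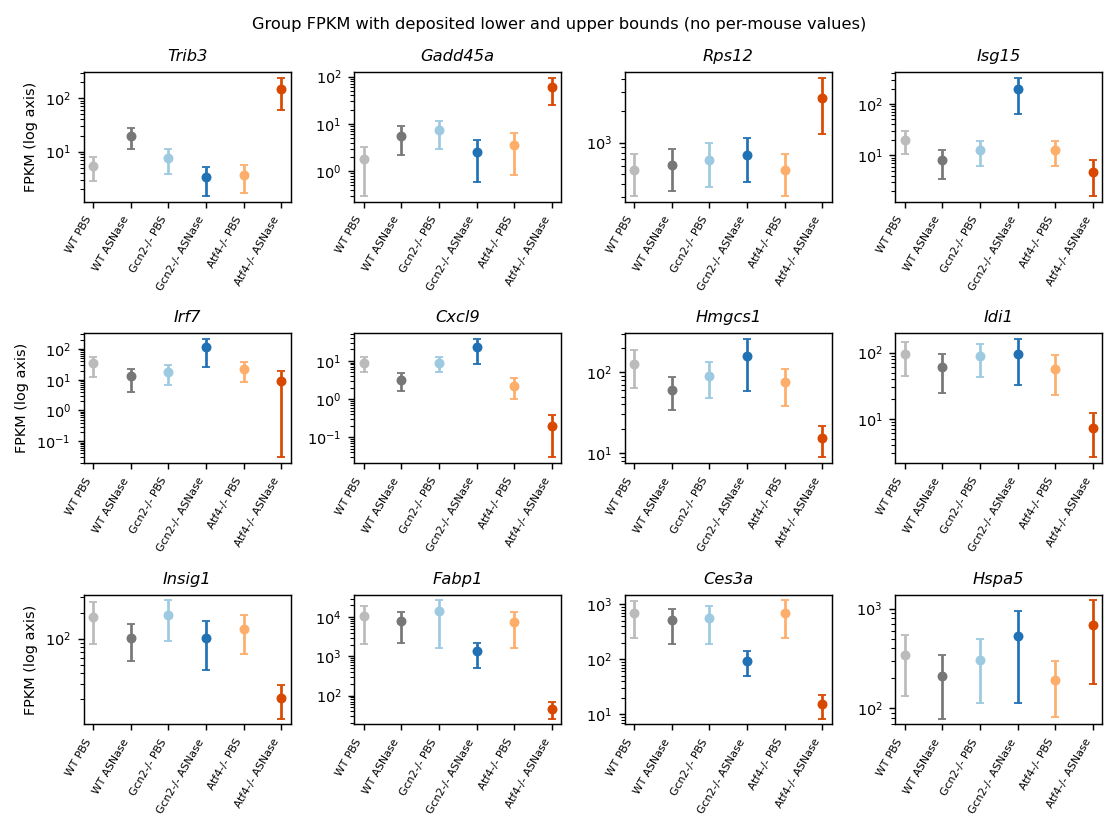
FPKM of 12 genes in the 6 groups on a log axis, with the deposited lower and upper bounds as error bars; a lower bound of 0 is drawn at 0.03. Trib3, Gadd45a and Rps12 are highest in Atf4-/- ASNase liver, Isg15, Irf7 and Cxcl9 are highest in Gcn2-/- ASNase liver, Fabp1 and Ces3a are low in both and lowest in Atf4-/-, and the bars of Hspa5 overlap.

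Interferon-stimulated genes gave the most calls of the 48 lists. Of 30 genes 26 met the FPKM limit, 16 were called lower in Atf4-/- (2.29% of all genes were) and 0 higher, and the median log2 difference over 30 members was -2.43, against 0.12 in the PBS groups. The values moved apart in opposite directions within the strains. Isg15 (chr4:156199424-156200818), a ubiquitin-like antiviral protein, was at 12.6 FPKM in Gcn2-/- PBS and 12.6 in Atf4-/- PBS livers. With ASNase Isg15 was at 196 in Gcn2-/- and 4.78 in Atf4-/- livers, 40.2-fold lower in the latter, a log2 difference of -5.33 ± 1.03. WT livers had 20.2 with PBS and 7.96 with ASNase.

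Irf7, which amplifies interferon production, was at 118 FPKM in Gcn2-/- ASNase and 9.16 in Atf4-/- ASNase livers, 12.8-fold lower, and was at 18.6 and 23.1 with PBS. Ifit3 and Ifit1, which bind viral RNA or adaptor proteins, were 33.6-fold and 15.7-fold lower in Atf4-/-; Ifit3 was at 23.6 and 0.605 FPKM and Ifit1 at 7.99 and 0.415. Oasl2, of the oligoadenylate synthetase family, was at 20.1 and 0.958 FPKM, 19.0-fold lower. Stat2, at 19.8 and 12.7, and Irf9, at 19.1 and 11.6, transcription factors that carry the interferon signal, were not called. Guanylate-binding proteins were among the calls, with Gbp2 12.4-fold and Gbp3 12.1-fold lower. Over the list, the median change from PBS to ASNase was 1.07 on the log2 scale in Gcn2-/-, -1.45 in Atf4-/- and -0.85 in WT livers.

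Of 22 chemokines 15 met the FPKM limit and 3 were called, all lower in Atf4-/- (2.29% of all genes were). The list median was -0.36 with 15 negative and 7 positive members. Of the positive members 3 passed the fold limit without being called. Cxcl9, which attracts T cells and was the called gene with the largest negative difference in the table, was at 22.4 FPKM in Gcn2-/- ASNase and 0.199 in Atf4-/- ASNase livers, 75.5-fold lower, and differed already with PBS, at 8.91 and 2.23. Ccl5 was at 11.3 and 1.02 FPKM and the monocyte attractant Ccl2 at 13.95 and 2.94. With the FPKM limit placed on the mean of the 4 other groups, a choice made after seeing the data, 1 of these 3 calls was left, so the others passed the limit only through a group where they were high. By the same limit 14 of 22 interferon-stimulated genes were called. Cxcl10, at 11.8 and 0.682, had overlapping intervals. Il1a, an inflammatory cytokine, was at 9.10 and 2.32 FPKM, the only call among 25 genes of NF-kB and IL-1 signaling, whose median was 0.18. By the limit on the mean of the 4 other groups Il1a was not called. The 19 MHC and antigen presentation genes had 0 calls and a median of -0.27.

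The promoters of these genes are shown because interferon signals act through an element of repeated GAAA, the ISRE, spelled GAAANNGAAA and searched on both strands. It was found in 15 of 22 interferon-stimulated genes with a promoter entry (68.2%) and in 3.99% of all genes with one. This element was added after the list's values were known. Capitals mark every match in the stretch, and overlapping matches run together as in Isg15. The stretches, from RefSeq GRCm38.p6, are chr4:156200852-156200931 (minus strand), chr19:34640750-34640829 (plus strand) and chr19:34583338-34583417 (plus strand).
Isg15: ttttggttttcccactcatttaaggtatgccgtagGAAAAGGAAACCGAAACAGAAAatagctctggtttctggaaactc
Ifit1: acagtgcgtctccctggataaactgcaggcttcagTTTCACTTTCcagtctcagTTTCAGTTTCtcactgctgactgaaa
Ifit3: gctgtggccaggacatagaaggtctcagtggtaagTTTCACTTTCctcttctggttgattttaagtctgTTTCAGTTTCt

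The mRNA of cholesterol synthesis enzymes was lower in Atf4-/- livers across the pathway. All 20 enzymes met the FPKM limit and had a negative difference, between -0.75 and -3.98 with a median of -2.18, and 10 were called lower (2.29% of all genes were) and 0 higher. The median in the PBS groups was -0.32. Hmgcs1 (chr13:119690462-119708086), an early enzyme of the pathway, was at 127 FPKM with PBS and 60.5 with ASNase in WT, at 91.1 and 158 in Gcn2-/- and at 74.6 and 15.1 in Atf4-/- livers. The treated Gcn2-/- group was the highest and the treated Atf4-/- group the lowest, and they differed 10.3-fold.

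The other called enzymes span the pathway from mevalonate to cholesterol. Idi1, which isomerises the isoprene unit, was at 96.3 FPKM in Gcn2-/- ASNase and 7.38 in Atf4-/- ASNase livers, 12.9-fold lower. Fdps, which makes farnesyl diphosphate, was at 216 and 28.5, 7.57-fold lower, and Sqle, which epoxidises squalene, at 89.7 and 25.2, 3.55-fold lower. The late enzymes Nsdhl, Dhcr7 and Tm7sf2 were 9.19-fold, 9.12-fold and 15.8-fold lower.

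Genes of the sterol regulator Srebp2 and of cholesterol handling gave calls in both directions. Insig1, which holds the regulator in the ER, was at 102 FPKM in Gcn2-/- ASNase and 20.4 in Atf4-/- ASNase livers. Mylip, an E3 ubiquitin ligase induced by sterols, was higher at 2.24 and 7.11 FPKM, and was at 1.99 and 5.65 with PBS. Srebf2 at 14.7 and 9.54 and Srebf1 at 65.1 and 34.0 were not called. Of the 21 genes in this list 18 met the FPKM limit, 3 were called lower (2.29% of all genes were) and 2 higher (0.898%). The list median was 0.14.

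The sterol response element, spelled TCACNCCAC and searched on both strands, was found in 1 of 15 cholesterol enzymes with a promoter entry (6.67%) and in 1.44% of all genes. That gene was Hmgcs1, whose stretch is at chr13:119690179-119690257 (plus strand, GRCm38.p6) with the match in capitals. The absence of these letters in the other windows says nothing about the regulator.
Hmgcs1: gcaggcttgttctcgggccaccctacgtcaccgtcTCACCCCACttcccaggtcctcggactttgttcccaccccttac

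Fatty acid oxidation genes were low in both treated strains and lower in Atf4-/-. Of 43 genes 39 met the FPKM limit, 10 were called lower (2.29% of all genes were) and 1 higher (0.898%), and 39 of 43 differences were negative with a median of -1.11, against -0.38 with PBS. The median change from PBS to ASNase was -0.99 in Gcn2-/-, -1.72 in Atf4-/- and -0.04 in WT livers. Fabp1 (chr6:71199827-71205023), the main fatty acid carrier of the hepatocyte, was at 10830 FPKM with PBS and 7854 with ASNase in WT, at 14306 and 1358 in Gcn2-/- and at 7629 and 46.6 in Atf4-/- livers. The ASNase values of the deletion strains differed 29.1-fold.

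Acaa1b, a peroxisomal thiolase, was at 29.3 FPKM in Gcn2-/- ASNase and 1.55 in Atf4-/- ASNase livers, 17.9-fold lower, from 584 and 277 with PBS. Bdh1, which makes the ketone body hydroxybutyrate, was 9.91-fold lower and Cyp4a10, which hydroxylates fatty acids, 8.99-fold lower. Ppara, the receptor that activates this programme, was at 39.8 and 8.52 FPKM with overlapping intervals, and Creb3l3, a liver factor that acts with it, was called at 124 and 26.0. Acot2, a mitochondrial thioesterase next to Acot1 in the genome and similar to it, was the 1 higher call, at 1.27 and 5.90, while Acot1 was 6.59-fold lower. Cpt1a, which admits fatty acids to mitochondria, was not called, at 58.2 and 38.6.

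Among other lipid genes, the desaturases Fads2 and Fads1 were 4.67-fold and 3.64-fold lower in Atf4-/- ASNase livers, and Elovl2, which elongates polyunsaturated fatty acids, was 3.00-fold lower. These were the 3 calls among 22 fatty acid synthesis genes, whose median was -0.64. Fasn, at 70.9 and 29.6 FPKM, was not called. Lpl, a lipase that is low in adult liver, was higher at 7.77 and 40.2 FPKM, and Plin5, a lipid droplet protein, lower at 36.7 and 8.34. Mfsd2a, a carrier of lysophosphatidylcholine, was at 99.2 and 11.5 FPKM, 8.53-fold lower.

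Detoxification genes gave calls in both directions. Of 16 carboxylesterases, enzymes that cleave esters of drugs and lipids, 7 were called lower (2.29% of all genes were) and 1 higher (0.898%), with a median of -1.13. Ces3a was at 553 FPKM with PBS and 94.7 with ASNase in Gcn2-/- and at 707 and 15.4 in Atf4-/- livers, so it was low in both treated strains and 6.12-fold lower in Atf4-/-. Ces1f was at 9.85 and 0.984 FPKM under the drug, from 277 and 240 with PBS. Ces2a did not separate, at 46.2 and 45.6.

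Among 50 cytochrome P450 genes of families 1 to 3, which oxidise drugs and steroids, 38 met the FPKM limit. Of these 6 were called lower (2.29% of all genes were) and 4 higher (0.898%). The higher ones were Cyp3a16, Cyp3a44, Cyp3a41a and Cyp2c39. All 4 were called in the same direction with PBS. Cyp3a16 is also a member of the female-biased list given below, and strain and sex cannot be told apart in its difference. Cyp3a16 was at 0.2 FPKM with PBS and 0.0606 with ASNase in Gcn2-/- and at 72.2 and 12.2 in Atf4-/- livers. The Cyp3a genes among these are near-identical copies, and reads shared between them make their values uncertain. Cyp17a1, a P450 outside these families that makes steroid hormones, was at 167 and 5.55 FPKM in the ASNase groups, 29.5-fold lower in Atf4-/-. Cyp1a2 and Cyp2e1 were not called.

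Bile acid and nitrogen genes gave few calls. Of 25 genes of bile acid synthesis and transport 23 met the FPKM limit. Of these 3 were called lower (2.29% of all genes were) and 1 higher (0.898%). Nr0b2 (Shp), a repressor of bile acid synthesis, was at 11.1 FPKM in Gcn2-/- ASNase and 1.03 in Atf4-/- ASNase livers, 9.86-fold lower, and Cyp8b1, the sterol hydroxylase that sets bile acid composition, at 8.22 and 1.81. Cyp7b1, of the alternative pathway, was higher at 5.06 and 28.4, as it was with PBS at 16.2 and 100. All 10 urea cycle genes had a negative difference, with a median of -0.90 and 1 call, Otc, at 96.5 and 15.7 FPKM. The 56 amino acid breakdown enzymes had a median of -0.40, against -0.31 with PBS. They gave 3 lower calls (2.29% of all genes were called lower), Uroc1 of histidine, Acmsd of tryptophan and Prodh2 of hydroxyproline breakdown. Rgn, a calcium-binding protein of the hepatocyte, was 14.3-fold lower and Dio1, which activates thyroid hormone, 8.93-fold lower.

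Most lists of plasma proteins gave few calls. The growth hormone and IGF axis had 1 call with a median of 0.04. The 32 coagulation and fibrinolysis genes had 2 lower calls with a median of 0.04. The complement genes had 2 lower calls with a median of -0.30. The FPKM limit was met by 24 of the coagulation and 25 of the complement genes, and 2.29% of all genes were called lower. Igfals, which stabilises IGF1 in plasma, was at 17.7 and 2.52 FPKM in Gcn2-/- ASNase and Atf4-/- ASNase livers, F11, a clotting factor, at 43.1 and 4.88, and C9, of the membrane attack complex, at 134 and 23.8, all of them called. The other coagulation call was Serpinf1, at 228 and 64.6, and the other complement call C8g, at 261 and 57.2. Of 21 major urinary protein genes 12 met the FPKM limit and 5 were called lower (2.29% of all genes were). They are near-identical copies, and 15 had no valid estimate in Atf4-/- PBS livers, so most can be compared under ASNase alone. Of the 3 that met the rule with PBS 1 was called, higher in Atf4-/-. Mup3 had a log2 difference of 1.59 with PBS and -1.87 with ASNase. Lect2 and Gulo were the 2 calls, both lower, among 15 pericentral hepatocyte genes, whose median was -1.10.

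Conjugating enzymes gave lower calls alone. Of 30 glucuronosyltransferases and sulfotransferases, which attach sugar or sulfate to drugs and hormones, 5 were called lower (2.29% of all genes were) and 0 higher, with a median of -0.54. Ugt2b36 was at 192 FPKM in Gcn2-/- ASNase and 39.1 in Atf4-/- ASNase livers and Ugt2a3 at 55.2 and 14.4. Of 44 glutathione and NRF2 genes 41 met the FPKM limit and 2 were called lower, near the 2.29% of all genes, and Gsta1, a glutathione transferase at 6.13 and 0.64 FPKM, was called in the same direction with PBS. The median of that list was -0.18.

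Smaller lists gave single calls. Pim1, a kinase induced by STAT3, was at 6.61 FPKM in Gcn2-/- ASNase and 31.8 in Atf4-/- ASNase livers, the 1 call among 20 genes of the IL-6 and STAT3 pathway. Egr1, an immediate early transcription factor, was at 7.42 and 22.9, and with Myc it made the 2 calls among 18 immediate early genes, both higher. Ppp1r3c, which targets a phosphatase to glycogen, was at 24.5 and 3.74, the 1 call among 28 genes of glucose and glycogen metabolism. Col3a1, a fibrillar collagen at 3.20 and 0.398, and Mmp19, a matrix protease at 12.1 and 3.39, were the 2 calls among 30 matrix genes, both lower.

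Genes in no list also reached large differences. Tff3, a secreted trefoil peptide, was at 48.9 FPKM in Gcn2-/- ASNase and 1.08 in Atf4-/- ASNase livers and was called lower with PBS as well. Chi3l1, a chitinase-like secreted protein, was at 47.8 and 1.77, and Rdh9, a retinol dehydrogenase, at 38.6 and 2.34. Their log2 differences were -4.68 for Chi3l1 and -3.99 for Rdh9.

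ER and acute phase genes gave few or no calls at this precision. The 22 ER chaperones and folding enzymes had 0 calls and a median of -0.23, and the 25 genes of ER-associated degradation and translocation 0 calls and -0.14. Hspa5 (BiP), the main ER chaperone, was at 305 FPKM with PBS and 530 with ASNase in Gcn2-/- and at 191 and 691 in Atf4-/- livers, a log2 difference of 0.38 ± 1.16 under the drug. Hsp90b1 was at 469 and 461 and Sdf2l1, a folding cofactor, at 83.7 and 65.8. No difference in these genes was called, and the rule could not call one of 1.5 or less. The combined error was 0.88 at the median over all genes. The list of 11 sensors and transcription factors of the unfolded protein response held wider differences. Its median was 0.24 and its 1 call was Creb3l3, lower at -2.25, while the sensor Ern1 at 1.47, its target Xbp1 at 0.68 and Ddit3 at 2.27 were not called.

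The ER stress element, spelled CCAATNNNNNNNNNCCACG and searched on both strands, is shown beside them because ER chaperones are among the stress genes for which no difference was called. It was found in 7 of 18 ER chaperone genes with a promoter entry (38.9%) and in 0.137% of all genes. The stretches are chr2:34771990-34772078 (plus strand) for Hspa5 and chr10:86705603-86705691 (minus strand) for Hsp90b1 in GRCm38.p6, with the match in capitals.
Hspa5: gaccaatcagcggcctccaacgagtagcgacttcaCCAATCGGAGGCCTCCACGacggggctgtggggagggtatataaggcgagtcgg
Hsp90b1: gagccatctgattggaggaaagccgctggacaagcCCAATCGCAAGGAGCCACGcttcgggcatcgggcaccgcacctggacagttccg

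Acute phase proteins were high in both treated strains. Of 42 listed genes 11 had no valid estimate in at least 1 ASNase group and could not be compared. Among the other 31 there was 1 call in each direction, with a median of 0.04. Lcn2, which binds bacterial siderophores, was at 10.5 FPKM in WT ASNase, 9990 in Gcn2-/- ASNase and 8691 in Atf4-/- ASNase livers. Serpina3n, a protease inhibitor, was at 159, 3849 and 3968 in the same groups. The metal-binding Mt1 was at 798, 6286 and 7118. Saa3, a serum amyloid, was at 12427 in Gcn2-/- ASNase and 672 in Atf4-/- ASNase livers and was not called because of wide bounds. With PBS Saa3 was already called lower in Atf4-/- livers, at a log2 difference of -5.23. A2m, a protease trap, was called lower at 4.96 and 0.567 and Serpina3c higher at 0.394 and 4.29. By the limit on the mean of the 4 other groups neither A2m nor Serpina3c was called. Serpina3c was also called higher with PBS, at a log2 difference of 5.78. The 57 nuclear subunits of oxidative phosphorylation had 0 calls and a median of -0.34, near the -0.52 seen with PBS.

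The same strains without the drug differed in fewer genes. Of 9015 genes that met the rule in the PBS groups, which share no mice with the ASNase groups, 88 were called (0.976%), 49 higher (0.544%) and 39 lower (0.433%) in Atf4-/-. By fold alone 170 genes passed (1.89%), 85 in each direction (0.943%). There were 26 genes called under both treatments, which is 8.72% of the ASNase calls and 29.5% of the PBS calls, and 20 of them had the same direction. Of the 298 ASNase calls, 168 had a PBS difference under 0.5 on the log2 scale. The difference between the strains itself changed from PBS to ASNase by over 1.5 and over the combined error of the 4 values in 574 of 9684 genes (5.93%), upward in 201 (2.08%) and downward in 373 (3.85%). By this measure 21 of 30 interferon-stimulated genes, 12 of 20 cholesterol enzymes and 11 of 43 fatty acid oxidation genes changed downward, and 36 of 80 ribosomal proteins and 11 of 26 ISR genes upward.

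**Figure D4:**
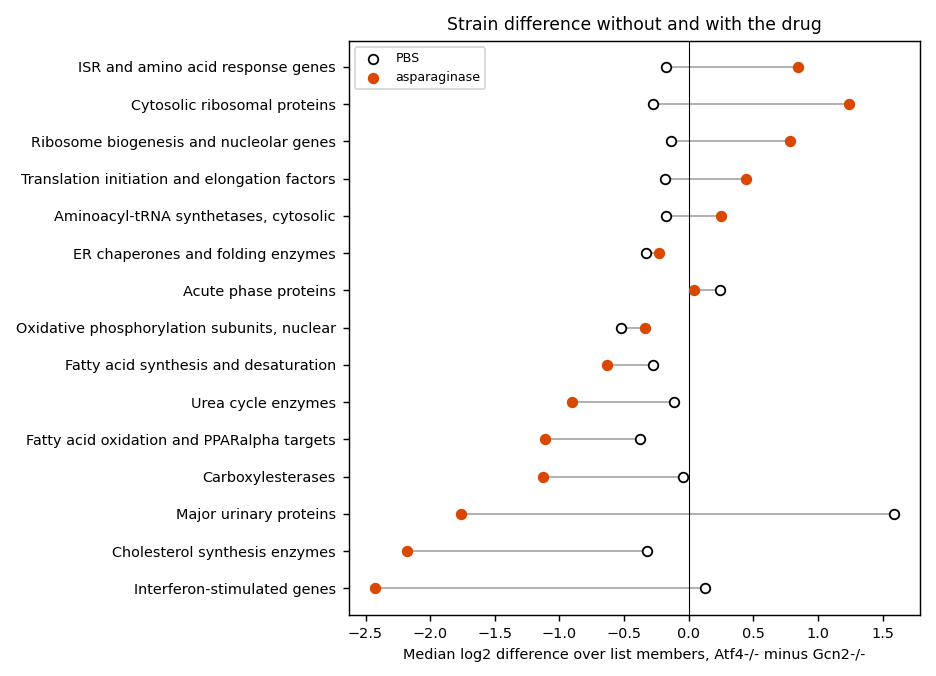
Median log2 difference of Atf4-/- minus Gcn2-/- over the members of 15 lists in the PBS groups (open) and in the ASNase groups (orange). The cytosolic ribosomal proteins move from -0.28 to 1.24, the cholesterol synthesis enzymes from -0.32 to -2.18 and the interferon-stimulated genes from 0.12 to -2.43, while ER chaperones are at -0.33 and -0.23; the PBS value of the major urinary proteins rests on the few with a valid PBS estimate.

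Transcripts of other tissues differed between the groups. The 15 skeletal muscle markers summed to 1061 FPKM with PBS and 1497 with ASNase in WT, to 10.8 and 12.9 in Gcn2-/- and to 88.7 and 197 in Atf4-/- livers. Their calls, Myh1, Tnnc2, Ckm and Mb, thus followed the strain with and without the drug. Tnnc2 was at 0.05002 FPKM in Gcn2-/- ASNase and 11.6 in Atf4-/- ASNase livers. The 14 pancreatic acinar markers summed to 13.5 and 88.6 FPKM in WT, 10.6 and 5.58 in Gcn2-/- and 16.7 and 478 in Atf4-/- livers, and 10 of the 14 were listed at 0 in Gcn2-/- ASNase livers. Ctrb1, a digestive protease, was the called gene with the largest positive difference, at 0.0180 in Gcn2-/- ASNase, 176 in Atf4-/- ASNase and 19.7 in WT ASNase livers, and Reg1 was called too. Other genes among the 15 largest positive differences were Vmn2r3, Krt4, Reg3b, Tff2 and Slc10a6, the last a steroid sulfate carrier at 1.14 and 20.5. Their part in the other results was not tested; without the genes of the muscle and acinar lists 291 genes were called, 77 higher and 214 lower.

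**Figure D5:**
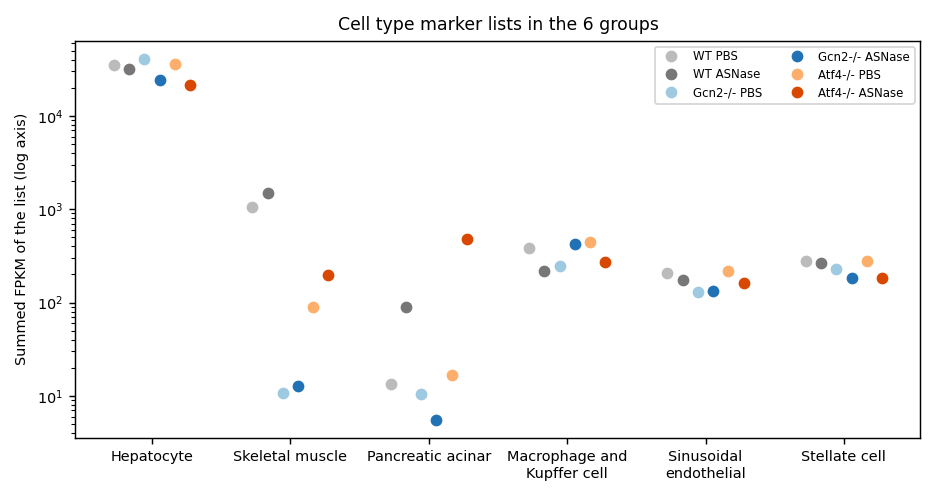
Summed FPKM of 6 cell type marker lists in the 6 groups on a log axis. Hepatocyte markers stay above all other lists in every group, while the muscle list runs from 10.8 to 1497 and the acinar list from 5.58 to 478.

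Markers of liver cells were present in both groups. The 13 hepatocyte markers with an estimate had a median of 0.02 and 0 calls. The 23 macrophage and Kupffer cell markers summed to 427 FPKM in Gcn2-/- ASNase and 271 in Atf4-/- ASNase livers, against 249 and 445 with PBS, so the order of the strains was opposite with and without the drug. Lyz2, lysozyme of myeloid cells, was their only call, at 134 and 38.5, and Marco and Cd5l were not called. The 19 lymphocyte markers summed to 15.7 and 9.29 FPKM. In whole liver, fewer cells of a type and less RNA per cell cannot be told apart, and the part of these cells in the interferon and chemokine values was not tested.

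Sex-linked and sex-biased transcripts were compared because the groups differed in sex make-up. Ddx3y, on the Y chromosome, was at 5.88 FPKM in Gcn2-/- ASNase and 14.2 in Atf4-/- ASNase livers, in groups with 1 and 2 males. Of 21 female-biased liver genes found 7 were called lower in Atf4-/- (2.29% of all genes were) and 3 higher (0.898%). Their median was -1.43. Of 19 male-biased genes 0 were called lower and 1 higher, and 16 were negative with a median of -0.52, against 1.23 with PBS. The Atf4-/- group had more males than the Gcn2-/- group under both treatments. A1bg, a female-biased secreted protein, was at 10.1 and 0.0922 FPKM, 52.9-fold lower. Leaving out the sex-biased and Y-linked lists left 287 called genes, 80 higher and 207 lower.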

How the data were processed

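Poly-A RNA of mouse liver was sequenced as single-end reads in 18 libraries. The authors aligned reads to mm10 with TopHat and deposited, from Cuffdiff, 1 FPKM per gene and group with lower and upper bounds and a status. Each value stands for the 3 libraries of a group, and the study describes its FPKM values as averages over 3. Depth per library and values of single libraries were not used here, so precision is given by these bounds, whose upper limit lay at a median of 52.5% above the value in Gcn2-/- ASNase and 54.2% in Atf4-/- ASNase livers. Every value column was mapped to a group, with 0 left over.

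From the deposited FPKM, log2(FPKM + 0.1) differences of Atf4-/- minus Gcn2-/- were computed with pandas 2.3.3 and numpy 2.4.6. Genes with a status other than OK (25 in the ASNase comparison) or listed at 0 in a group (162) were left out. The fold and FPKM limits, 1.5 and 3, follow the study. Of 1559 list entries 1556 were found by symbol or identifier. The genes named are, in each list, up to 8 called members by size, with the highest members of lists with few calls, and the 15 largest calls in each direction among genes with an ordinary symbol; a few uncalled genes and neighbours of called genes were named after their values were seen. The members and lists were chosen with earlier results of these data known. Loci are those of the deposited table, which merges some neighbouring genes. Alternatives are given in the closing section. A few genes are not reported here.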

Additional observations from a re-analysis of the deposited data

Results flagged for a closer look

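Among the 26 genes called under both treatments, 6 had opposite directions, and the 2 with an ordinary protein-coding symbol are given here; the difference between treatments was not tested. Rasgef1b had a log2 difference of Atf4-/- minus Gcn2-/- of 1.84 with PBS and -1.87 with ASNase, from 3.40, 18.0, 12.4 and 4.84 FPKM in Gcn2-/- PBS, Gcn2-/- ASNase, Atf4-/- PBS and Atf4-/- ASNase livers. Akr1b7, an aldose reductase, had -2.11 with PBS and 3.08 with ASNase, from 3.54, 0.388, 0.741 and 4.03 FPKM in the same order.

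Transcripts of pancreatic acinar cells also appeared in the WT ASNase group, which the comparison did not use. Ctrb1 was at 19.7 FPKM there and 0.245 in WT PBS livers, Cpa1 at 2.69 and 0.0677, and Prss2 at 7.62 and 0.0522, each with intervals that did not overlap.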

How the results depend on the processing

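Values of single libraries were not used here, so leaving out each replicate in turn was not run. No paired analysis was possible because the table gives 1 value per group. Of 759 counts of list members under an alternative, 683 stayed within 1.5 times the reported count, and none of the 135 called genes in a function list or among the largest differences changed direction. The ASNase count stayed within 1.5 times except where the interval rule changed. With the combined error in its place 519 genes were called (181 higher, 338 lower), by the fold limit alone 581 (214 and 367), and with genes listed at 0 included 186 were higher, which took the share of lower calls from 71.8% to 57.6%. With an FPKM limit of 10, 24 of the 135 genes were no longer called. Under a limit on the mean of the 4 other groups, chosen after seeing the data, 21 were no longer called, and 272 genes were called. Lists that lost calls by it included the ISR genes, with 3 of 4 left, the major urinary proteins, with 3 of 5, and the immediate early genes, with 1 of 2. The PBS count of 88 became 56 (29 higher) with an FPKM limit of 10, 144 (77 higher, 67 lower) with the combined error, 170 (85 and 85) by fold alone and 182 (90 and 92) with genes at 0. With a limit of 1, the change from PBS to ASNase was passed by 865 genes, 323 of them upward. The number of lists with 3 or more calls, 15, ranged from 14 to 22. The combined error of a gene was 0.88 on the log2 scale at the median. A difference of 1.5 or less could not be called by the main rule, so its absence among the calls says nothing about it.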
